A study of Mus musculus with 37 samples.

Results

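The 77 genes described here, of 24016 genes in the expression table, carry the Mrpl or Mrps symbols given to proteins of the mitochondrial ribosome. They were taken by name: every gene whose symbol is Mrpl or Mrps followed by a digit, which gave 48 proteins named for the large and 29 named for the small subunit. The rule used no measured value. RNA was measured in bone marrow-derived macrophages of WT mice and of mice homozygous for a deletion of Arntl (Arntl-/-), the gene for the circadian clock activator Bmal1. The 8 libraries were made from cells treated for 0, 6, 24 or 48 h with KLA (Kdo2-lipid A), the part of bacterial lipopolysaccharide that Toll-like receptor 4 recognizes, with 1 library for each genotype and time. Marrow came from male mice, 6 to 9 weeks old, of the C57BL/6J strain or of the Arntl-/- line, made on a C57BL/6 background. The authors also call the WT mice littermate controls. Marrow cells were grown for 6 days with M-CSF, the growth factor that drives macrophage differentiation. The sources used here do not say how many mice went into each library.

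Mitochondria keep their own ribosome, which translates the few proteins encoded by mitochondrial DNA, all of them membrane subunits of the respiratory chain and the ATP synthase. Its RNA comes from the mitochondrial genome, but its proteins are encoded in the nucleus, made in the cytoplasm and imported. Some descend from bacterial ribosomal proteins and others were added in the mitochondrial lineage; the small subunit decodes the message and the large subunit joins the amino acids and feeds the product into the inner membrane.

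With 1 library per condition there is no replicate error and no test at a single time, so a difference at 1 time or between 2 times is between 2 libraries. Levels are given as scaled FPKM, that is reads per kilobase of exon and per 10000000 reads, divided by a size factor for each library. Members were counted as apart where the levels differed at least 1.5-fold, and such counts are read against the share of all 10499 analysed genes that did the same. Fold values carry a 95% counting interval in parentheses, which covers the counting of reads only. Libraries held 8587560 to 27036783 reads on genes, of which 0.212% to 0.251% fell on the 77 members, all of which passed the filter on low reads. The member with the fewest reads had 49 to 318 per library. Arntl itself stood at 34.7, 32.6, 35.9 and 39.1 in WT and at 14.0, 11.4, 19.0 and 20.4 in Arntl-/- libraries at 0, 6, 24 and 48 h. It was lower in each Arntl-/- library, although not at 0. Summed macrophage markers spanned 15240 to 38000 in WT and 17160 to 33930 in Arntl-/- libraries. Summed granulocyte markers were 533 to 937 and 868 to 1043, stromal markers 482 to 1371 and 363 to 778, and lymphoid markers 1.15 to 4.13 and 3.97 to 14.4. Dendritic and mast cell markers summed to less than 4 in each library. The part of these markers in the results was not tested, and in such bulk samples fewer cells of a type and less RNA per cell cannot be told apart.

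The summed level of the members varied little among the 8 libraries. It was 14226, 13050, 12754 and 14114 in WT macrophages at 0, 6, 24 and 48 h, and 13259, 14360, 12852 and 13762 in Arntl-/- macrophages. The highest library thus stood 1.13-fold above the lowest. In the same libraries the sum of the cytoplasmic ribosomal proteins, which build the ribosome of the cytosol, ran from 67626 to 142500, a 2.11-fold range. The nuclear subunits of the respiratory chain and ATP synthase, several of which assemble with products of the mitochondrial ribosome, ran from 31968 to 50988, a range below 2-fold. Both of these groups were lowest in the WT 6 h library, which was sequenced most deeply. At most 3 tags per position had been kept, and the densest member held 0.637 to 2.02 reads per base of exon in the 8 libraries, against 4.21 to 7.15 for the densest cytoplasmic ribosomal protein gene. These cytoplasmic values exceed 3 per base, and how the limit was applied was not examined. The sums carry no correction for expression level, and the part of depth and of this limit was not tested.

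The large and the small subunit kept nearly the same proportion. The large subunit summed to 9178, 8456, 8227 and 9307 in WT and to 8675, 9289, 8292 and 8974 in Arntl-/- macrophages. The small subunit summed to 5048, 4594, 4527 and 4807 in WT and to 4584, 5071, 4561 and 4788 in Arntl-/- macrophages. The ratio of the sums was 1.82, 1.84, 1.82 and 1.94 in WT and 1.89, 1.83, 1.82 and 1.87 in Arntl-/- macrophages, so the WT 48 h library had the highest ratio of the 8. Symbols and structure part ways for 3 members: Mrps18a and Mrps30 sit in the large subunit, and Mrps36 is a component of the 2-oxoglutarate dehydrogenase complex rather than of the ribosome. Assigned by structure, the ratio was 2.11, 2.11, 2.13 and 2.31 in WT and 2.16, 2.11, 2.12 and 2.24 in Arntl-/- macrophages, again highest at 48 h in WT.

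**Figure D1:**
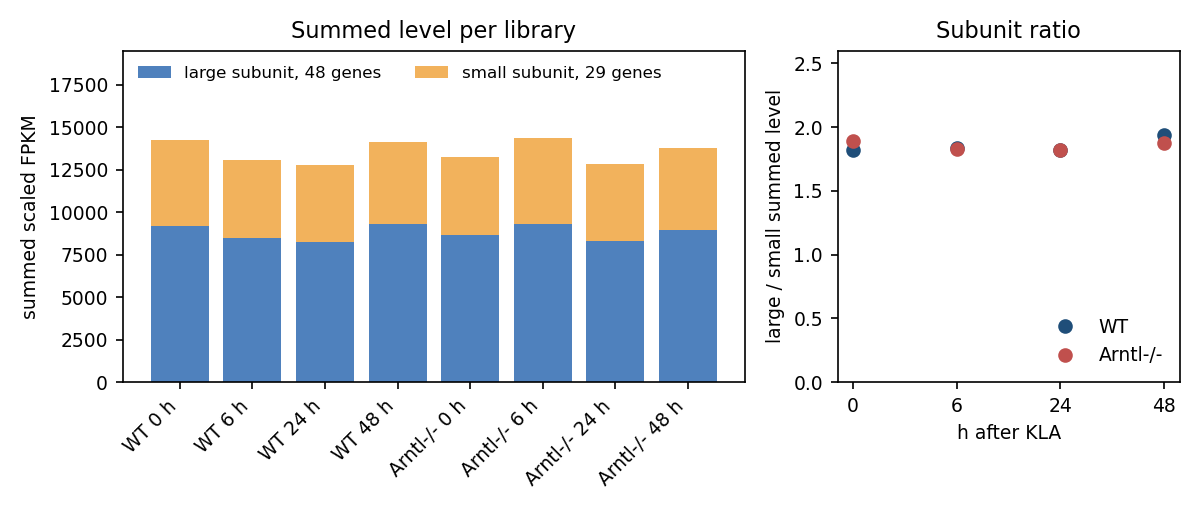
Summed scaled FPKM of the 48 large and 29 small subunit genes in each of the 8 libraries (stacked bars, axis from 0), with the ratio of the large to the small sum in the panel beside it. The sums lie between 12754 and 14360, and the ratio between 1.82 and 1.94.

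Gene by gene, the members also spread less over the 8 libraries than most other genes. The ratio of a member's highest to its lowest library had a median of 1.47, against 1.64 over all analysed genes, 2.12 for cytoplasmic ribosomal proteins and 1.64 for respiratory chain and ATP synthase subunits. Only 5 of 77 members (6.49%) reached a 2-fold range, against 29.1% of all genes and 31.5% of genes in the members' range of reads. These 5 were Mrps28 at 2.81-fold, Mrpl32 at 2.35-fold, Mrpl12 at 2.20-fold, Mrpl53 at 2.13-fold and Mrpl45 at 2.07-fold. The narrowest range, 1.15-fold, was that of Mrps33. Large and small subunit had medians of 1.49 and 1.46. The median deviation of the members from their own 8-library mean lay between −0.09 and 0.10 log2 units in every library, whereas it ran from −0.60 to 0.46 for cytoplasmic ribosomal proteins and from −0.31 to 0.29 for respiratory chain subunits. A correction for expression level narrowed this contrast. In WT from 0 to 6 h the cytoplasmic median change was then −0.17 in place of −0.62, and from 6 to 24 h 0.22 in place of 0.78. The respiratory chain medians were −0.10 in place of −0.32 and 0.11 in place of 0.38. Those of the members were −0.12 in place of −0.10 and −0.08 in place of −0.09.

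**Figure D2:**
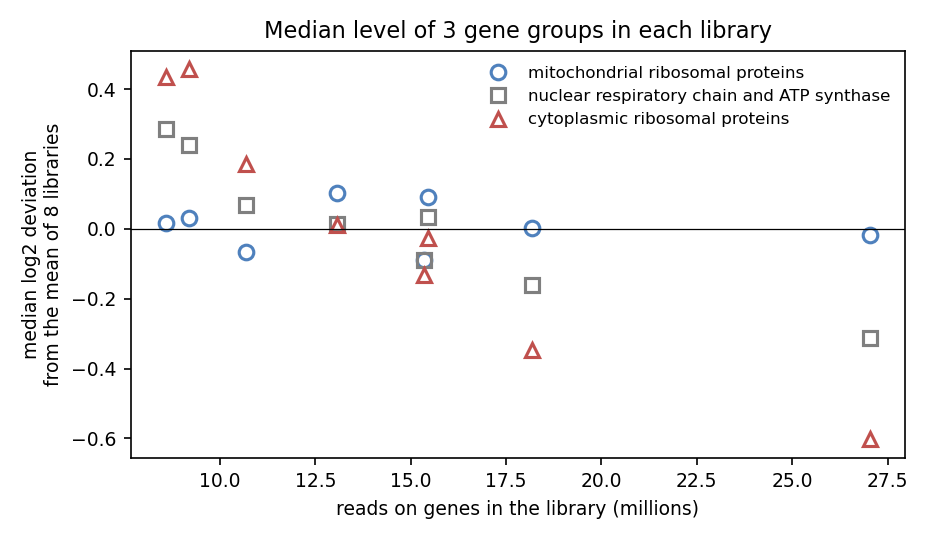
Median log2 deviation from each gene's own 8-library mean, for mitochondrial ribosomal proteins, cytoplasmic ribosomal proteins and nuclear respiratory chain and ATP synthase subunits, against the reads on genes in each library on the horizontal axis. The members stay between −0.09 and 0.10, while the cytoplasmic ribosomal proteins fall to −0.60 in the WT 6 h library, the deepest of the 8. No correction for expression level was applied.

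Members differed in scaled FPKM. Mean levels over the 8 libraries ran from 28.3 for Mrpl17 to 472 for Mrps21, a 16.7-fold range. The median was 164 for the large and 141 for the small subunit beside 117 for all analysed genes. FPKM divides reads by exon length, which was 6707 bases for Mrpl17 and 403 for Mrps21. Their reads were 428 and 418 in the WT 0 h library, and 1006 and 785 in the WT 6 h library. The order by level is thus not an order by reads, and the part of exon length in it was not tested. In the large subunit the highest were Mrpl33 at 467, Mrpl52 at 426 and Mrpl24 at 397, and the lowest Mrpl17, Mrpl35 at 34.9 and Mrpl1 at 46.8. Mrpl33, Mrpl24, Mrpl17, Mrpl35 and Mrpl1 all have bacterial counterparts, and Mrpl52 has none. In the small subunit the highest were Mrps21, Mrps18c at 366 and Mrps26 at 233. The lowest were Mrps31 at 53.3, Mrps35 at 68.3 and Mrps27 at 69.7. These 3 proteins were added in mitochondria, as was Mrps26, while Mrps21 and Mrps18c have bacterial counterparts.

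Members were compared by the DNA before their start sites, since genes for mitochondrial proteins are known to be driven in part by NRF1, by the ETS factor GABP and by YY1, and since Bmal1 binds the E-box. Promoter windows from RefSeq on build GRCm38.p6, from 250 bases before to 50 bases after each start, were matched to 68 of the 77 members (74 windows of 32851). Both strands were searched for GCGCANGCG (NRF1), CCGGAAG (ETS), AANATGGCG (YY1), CACGTG (E-box) and GGGNNNTCC (NF-kB), and matches of different motifs may overlap. NRF1 letters were found in 21.6% of the members' windows against 6.25% of all windows, ETS letters in 33.8% against 8.86% and YY1 letters in 13.5% against 2.38%. At least 1 of these 3 was present in 56.8% against 15.4%. The E-box was present in 9.46% against 7.15%, that is in 7 of the members' 74 windows, which belong to 5 of the 68 matched members. The NF-kB letters were present in 18.9% against 17.8%. Median GC content was 58.5% in the members' windows and 52.7% in all, which bears on the GC-rich NRF1 and ETS letters. NRF1 letters stood in 25.5% of large and 14.8% of small subunit windows, and ETS letters in 29.8% and 40.7%. These are matches of letters, not sites of binding.

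The 77 genes lie on 17 chromosomes, with 10 on chromosome 11 and 8 on chromosome 17. Another gene starts on the opposite strand within 1000 bases, pointing away, for 27 of 77 members (35.1%), against 14.6% of all analysed genes. Mrpl43 starts 116 bases from Peo1, the mitochondrial DNA helicase Twinkle, Mrps12 starts 187 bases from Sars2, the mitochondrial seryl-tRNA synthetase, and Mrpl47 starts 308 bases from Ndufb5, a complex I subunit. In 1 pair both genes are members, Mrpl46 and Mrps11. For 7 members (9.09%, all genes 14.6%; Mrpl19, Mrpl24, Mrpl41, Mrpl48, Mrpl49, Mrps25 and Mrps27) a gene on the opposite strand overlaps, and since reads of both strands were counted the 2 genes' reads cannot be told apart there.

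Taken over all 77 members, the 2 genotypes differed little. Their median log2 ratio between Arntl-/- and WT was −0.10, 0.10, 0.01 and −0.01 at 0, 6, 24 and 48 h, where the medians over all genes were −0.01, 0.01, 0.00 and −0.02. With a correction for gene length the members' medians were −0.05, −0.05, 0.06 and −0.03, so the sign at 6 h depended on it. Values as deposited moved all genes alike and left the members' distance from the median of all genes at −0.09, 0.09, 0.02 and 0.01. The large subunit had medians of −0.09, 0.09, 0.01 and −0.07, and the small subunit −0.13, 0.11, 0.03 and −0.01, so the 2 subunits differed by at most 0.06 at any time. Cytoplasmic ribosomal proteins had medians of −0.36, 0.58, −0.33 and −0.02 in the same libraries. With a correction for expression level these were −0.14, 0.15, −0.13 and 0.03, and the members' medians were −0.09, 0.09, 0.00 and 0.00.

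Few members were 1.5-fold apart between genotypes. At 0 h there was none of 77, where 5.21% of all genes were that far apart. At 6 h only Mrps9 was lower in Arntl-/- macrophages (1 of 77, all genes 4.69%). At 24 h Mrpl53 was higher and Mrpl47 and Mrps28 lower (3 of 77, all genes 6.75%), and at 48 h Mrpl47 and Mrps11 were higher and Mrpl32 lower (3 of 77, all genes 11.7%). Averaged over the 4 times, no member reached 1.5-fold, as 1.70% of all genes did; the means ran from −0.42 for Mrps28, −0.32 for Mrpl32 and −0.31 for Mrpl28 to 0.20 for Mrpl48, 0.33 for Mrpl53 and 0.39 for Mrps11. In a limma fit of genotype and time over all genes, 0 of 77 members had an adjusted p below 0.05, as 0.276% of all genes did, and 7 of 77 (9.09%) had an unadjusted p below it, as 8.58% of all genes did. The lowest adjusted p of a member in this limma fit was 0.317, for Mrps28. Mrps11, Mrpl53 and Mrps26 were higher in Arntl-/- macrophages at all 4 times (3 of 77, all genes 7.83%), and Mrpl10, Mrpl21 and Mrpl39 were lower at all 4 (3 of 77, all genes 7.49%). Mrpl10, which forms the base of the ribosomal stalk, was the steadiest of these, at −0.16, −0.19, −0.18 and −0.20 log2 units.

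**Figure D3:**
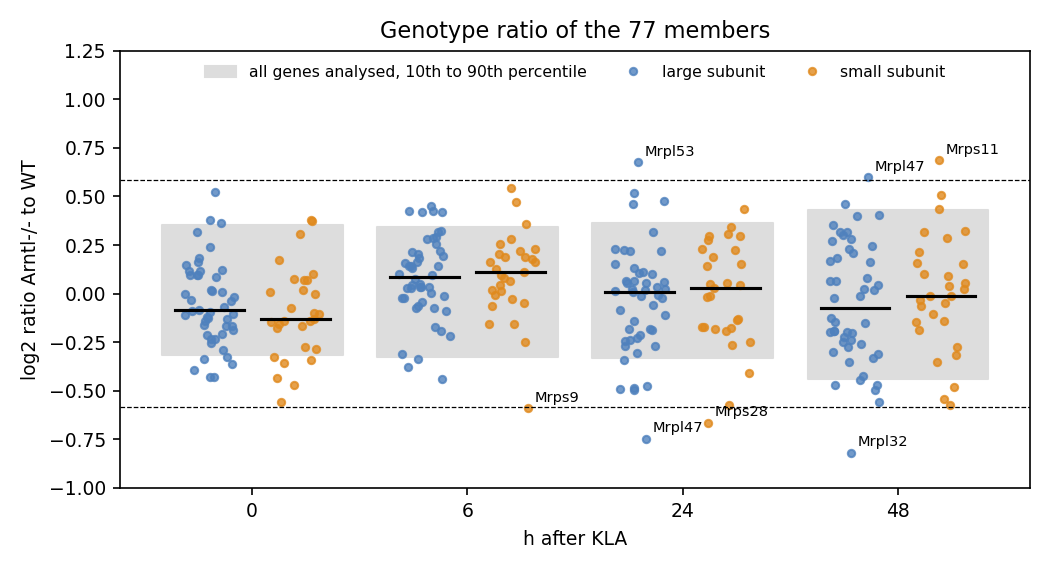
Log2 ratio of Arntl-/- to WT for each of the 77 members at 0, 6, 24 and 48 h of KLA, by subunit, with bars at the subunit medians, the 10th to 90th percentile of all analysed genes in grey and dashed lines at 1.5-fold. The medians lie between −0.13 and 0.11, and 0, 1, 3 and 3 members lie beyond the dashed lines.

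After KLA the members as a group were slightly lower at 24 than at 6 h, in WT macrophages more so in the large subunit, and whether they were higher again at 48 h depended on a correction for gene length. In WT macrophages the median log2 change was −0.10 from 0 to 6 h, −0.09 from 6 to 24 h and 0.06 from 24 to 48 h. In Arntl-/- macrophages it was 0.04, −0.20 and 0.08, with medians over all genes within 0.03 of 0 at each step. From 6 to 24 h the large subunit had a median of −0.10 and the small subunit −0.01 in WT, and −0.20 and −0.18 in Arntl-/- macrophages; with a correction for gene length the WT medians were −0.25 and −0.18. From 24 to 48 h they had 0.15 and −0.01 in WT, the widest gap between the subunits at any step, and 0.11 and 0.03 in Arntl-/- macrophages. With a correction for gene length the members' 3 steps were −0.03, −0.20 and −0.01 in WT and −0.01, −0.10 and −0.03 in Arntl-/- macrophages, so the higher median at 48 than at 24 h was lost, as was the positive first step in Arntl-/- macrophages. On the values as deposited all genes moved, and the members' distance from them moved by at most 0.0002. The lowest library of the 4 was that of 24 h for 29 of 77 members in WT (37.7%, all genes 19.8%) and for 32 of 77 in Arntl-/- macrophages (41.6%, all genes 16.1%). In WT these were 22 of 48 large (45.8%) and 7 of 29 small subunit members (24.1%). The highest library was that of 0 h for 31 of 77 members in WT (40.3%, all genes 26.2%) and for 17 of 77 in Arntl-/- macrophages (22.1%, all genes 28.9%). With a correction for gene length the counts were 33 (42.9%, all genes 25.6%) and 31 (40.3%, all genes 29.9%), so the contrast between the genotypes was not kept.

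At each step the share of members 1.5-fold apart between times, in either direction, was below that of all genes. In a single direction 1 step was an exception, from 6 to 24 h in Arntl-/- macrophages. From 0 to 6 h it was 0 of 77 in WT (all genes 8.97%), and in Arntl-/- macrophages Mrps21 was higher and Mrps9 lower (2 of 77, all genes 6.50%). From 6 to 24 h in WT, Mrpl45 was higher and Mrpl53 lower (2 of 77, all genes 16.1%). Over the same interval in Arntl-/- macrophages none was higher and 8 of 77 were lower (10.4%), namely Mrpl12, Mrpl15, Mrpl36, Mrpl40, Mrpl55, Mrps18b, Mrps27 and Mrps28, where 6.14% of all genes were lower and 12.0% were apart in either direction. From 24 to 48 h in WT, Mrpl12, Mrpl53, Mrpl55 and Mrps18a were higher and Mrpl47 lower (5 of 77, all genes 18.0%). In Arntl-/- macrophages Mrpl12 and Mrpl47 were higher and Mrpl9, Mrpl20 and Mrpl32 lower (5 of 77, all genes 16.0%).

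Over the whole course, from 0 to 48 h, 6 of 77 members were apart in WT (all genes 28.6%) and 11 of 77 in Arntl-/- macrophages (all genes 32.5%). In WT, Mrpl45 was higher and Mrpl13, Mrpl47, Mrps9, Mrps18b and Mrps28 lower, where 13.5% of all genes were higher and 15.2% lower. In Arntl-/- macrophages Mrpl14, Mrpl43, Mrpl45 and Mrps21 were higher and Mrpl20, Mrpl32, Mrpl36, Mrpl40, Mrpl50, Mrps17 and Mrps28 lower, where 15.2% of all genes were higher and 17.3% lower. Mrpl45 and Mrps28 were the 2 members on both lists, each in the same direction. The 2 courses share no library; across the 77 members their log2 changes had a Pearson r of 0.56 and the same sign for 50 genes (64.9%), against 0.78 and 78.4% across all genes. Genes are not independent replicates.

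**Figure D4:**
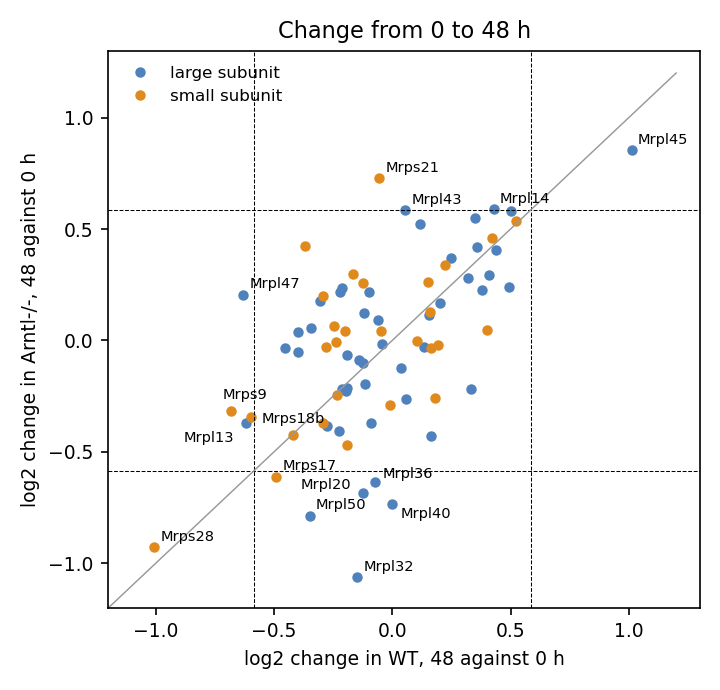
Log2 change from 0 to 48 h of KLA in WT (horizontal) and Arntl-/- macrophages (vertical) for each member, by subunit, with the diagonal and dashed lines at 1.5-fold. Mrpl45 lies beyond the lines at the upper right and Mrps28 at the lower left, and most other members lie near the origin.

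Among the large subunit proteins, Mrpl45 alone was 1.5-fold higher at 48 than at 0 h in both genotypes. It lies at the mouth of the exit tunnel and anchors the ribosome to the inner membrane (NM_025927, chr11:97177030-97191234 on mm9). Its level was 117, 126, 202 and 237 in WT and 114, 146, 204 and 207 in Arntl-/- macrophages at 0, 6, 24 and 48 h. The 4 libraries of 24 and 48 h were all above the 4 of 0 and 6 h. At 48 h it was 2.02-fold higher (1.81 to 2.25) than at 0 h in WT and 1.81-fold higher (1.63 to 2.01) in Arntl-/- macrophages. The 4 genotype pairs differed by −0.04, 0.21, 0.02 and −0.19 log2 units. The promoter is shown because Mrpl45 was higher late in both genotypes, from 100 bases before to 30 bases after the start (chr11:97315616-97315745 on the plus strand, GRCm38.p6), with NRF1 letters in capitals, 1 match on each strand; a further match lies upstream of the stretch shown.

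Mrpl45: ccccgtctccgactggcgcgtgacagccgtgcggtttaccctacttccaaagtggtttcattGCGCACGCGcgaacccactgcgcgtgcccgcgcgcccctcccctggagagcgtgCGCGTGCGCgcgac

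Mrpl32, a counterpart of a bacterial protein that the m-AAA protease must trim before it joins the ribosome, went the other way in Arntl-/- macrophages (NM_029271, chr13:14702568-14705304 on mm9). Its level was 133, 160.1, 133 and 120.1 in WT and 142, 127, 115 and 68.03 in Arntl-/- macrophages. The Arntl-/- 48 h library was the lowest of the 8, and the remaining 7 lay between 115 and 160.1. At 48 h it was 1.77-fold lower (1.297 to 2.42) in Arntl-/- than in WT, and within Arntl-/- macrophages it was 2.09-fold lower (1.599 to 2.76) at 48 than at 0 h. Psma2, a proteasome subunit whose start lies 205 bases away on the other strand, had a log2 ratio of 0.04 between genotypes at 48 h. The promoter, with the same motif as that of Mrpl45, is shown beside it (chr13:14613008-14613137 on the minus strand, GRCm38.p6); capitals again mark NRF1 letters, and the first run holds a match on each strand.

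Mrpl32: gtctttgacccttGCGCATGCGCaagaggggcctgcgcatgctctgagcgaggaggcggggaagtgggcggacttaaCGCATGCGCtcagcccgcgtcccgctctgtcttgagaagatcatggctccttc

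Mrpl47, of the family of the bacterial protein L29 at the tunnel exit (NM_029017, chr3:32626419-32635677 on mm9), crossed between genotypes. Its level was 85.6, 76.2, 83.2 and 55.3 in WT and 72.7, 67.7, 49.5 and 83.8 in Arntl-/- macrophages. The Arntl-/- 24 h and WT 48 h libraries were the lowest 2 of the 8. It was 1.68-fold lower (1.28 to 2.202) in Arntl-/- macrophages at 24 h and 1.52-fold higher (1.09 to 2.12) at 48 h. Its divergent neighbor Ndufb5 had log2 ratios of −0.16 and 0.28 at these times. Both values of Mrpl47 rest on small counts, 106 reads in Arntl-/- at 24 h and 63 in WT at 48 h, and both kept to 1.5-fold under the other scalings. The lower WT level at 48 h than at 24 or 0 h did not reach 1.5-fold under a correction for expression level.

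Of the proteins at the stalk, where translation factors dock, Mrpl12 had the widest swing. Mrpl12 is the flexible stalk protein (NM_027204, chr11:120345983-120350068 on mm9). Its level was 263, 213, 189 and 286 in WT and 205, 286, 134 and 295 in Arntl-/- macrophages. It was 2.13-fold lower (1.86 to 2.45) at 24 than at 6 h in Arntl-/- macrophages and 2.199-fold higher (1.88 to 2.57) at 48 than at 24 h, so that it dipped at 24 h and recovered. In WT the 24 h library was also the lowest of the 4, and the level at 48 h was 1.51-fold higher (1.29 to 1.77) than at 24 h, though less than 1.5-fold on the values as deposited, under upper-quartile scaling and under a correction for gene length. Mrpl53, a mitochondrial addition near the base of the stalk (NM_026744, chr6:83059102-83059926 on mm9), stood at 196, 238, 152 and 266 in WT and 244, 243, 243 and 324 in Arntl-/- macrophages. The 24 h library was low in WT alone, and there the level in Arntl-/- macrophages was 1.601-fold higher (1.32 to 1.94). In both genotypes the 48 h library was the highest. Its promoter is shown for its pair of ETS matches, 1 on each strand, in capitals (chr6:83109008-83109137 on the plus strand, GRCm38.p6).

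Mrpl53: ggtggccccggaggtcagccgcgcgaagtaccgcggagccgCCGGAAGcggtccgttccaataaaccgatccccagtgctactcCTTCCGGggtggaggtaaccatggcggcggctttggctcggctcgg

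Other members with bacterial counterparts were lower at 48 h in Arntl-/- macrophages. Mrpl20 stood at 328, 331, 308 and 301 in WT and 355, 349, 338 and 221 in Arntl-/- macrophages, and the Arntl-/- 48 h library was the lowest of the 8, 1.61-fold lower (1.37 to 1.902) than at 0 h. Mrpl36 stood at 133, 162, 125 and 126 in WT and 171, 185, 110.03 and 110.3 in Arntl-/- macrophages and was 1.55-fold lower (1.27 to 1.91) at 48 than at 0 h in Arntl-/- macrophages, where both late libraries were below both early ones. Mrps17 stood at 222, 224, 169.8 and 158 in WT and 199, 200.4, 175 and 130.2 in Arntl-/- macrophages, 1.53-fold lower (1.304 to 1.798) at 48 than at 0 h in Arntl-/-. In the other direction, Mrpl14, at the face between the subunits, was 1.51-fold higher (1.29 to 1.76) at 48 than at 0 h in Arntl-/- macrophages. Mrpl13 was 1.54-fold lower (1.303 to 1.81) in WT over that interval. Of these 5, only Mrpl20 and Mrpl13 kept to 1.5-fold under every scaling tried; Mrpl36 and Mrps17 did not under a correction for expression level, nor Mrpl14 under any of the 4.

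Mrpl20 and Mrpl36 are also 2 of the 5 members with an E-box in their promoter window, and their sequences are shown for that motif, in capitals (Mrpl20 at chr4:155802778-155802907 on the plus strand and Mrpl36 at chr13:73330909-73331038 on the plus strand, GRCm38.p6). The second run of capitals in Mrpl36 marks YY1 letters.

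Mrpl20: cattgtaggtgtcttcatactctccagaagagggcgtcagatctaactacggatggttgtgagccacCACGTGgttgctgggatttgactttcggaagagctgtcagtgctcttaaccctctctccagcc
Mrpl36: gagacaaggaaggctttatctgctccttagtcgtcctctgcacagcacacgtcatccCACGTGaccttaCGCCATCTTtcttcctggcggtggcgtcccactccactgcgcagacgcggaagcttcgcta

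The 5 members with an E-box (Mrpl2, Mrpl20, Mrpl36, Mrpl37 and Mrps18c) were lower in Arntl-/- than in WT in 2, 0, 2 and 5 of 5 cases at 0, 6, 24 and 48 h. Their median log2 ratios were 0.02, 0.19, 0.10 and −0.30, and at 48 h they ran from −0.57 for Mrps18c to −0.19 for Mrpl2. Of all 77 members, 48, 23, 37 and 41 were lower at these times, and of all genes 52.2%, 48.8%, 50.5% and 53%. These 5 were singled out after their values were seen, so their counts are a description. None of the 5 was 1.5-fold apart between genotypes at any time (all genes 4.69% to 11.7%), and binding of Bmal1 at these promoters was not analysed here.

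Members that mitochondria added to the large subunit gave a mixed picture. Mrpl40 stood at 159, 139, 112 and 159.5 in WT and 188, 186, 113 and 113 in Arntl-/- macrophages; in both genotypes it was lower at 24 h, and at 48 h it was back at the level of 0 h in WT but not in Arntl-/- macrophages, where it was 1.66-fold lower (1.39 to 1.999) than at 0 h. Mrpl50 stood at 116, 108, 82.5 and 90.9 in WT and 123, 111, 96.8 and 71.2 in Arntl-/- macrophages and was 1.73-fold lower (1.47 to 2.03) at 48 than at 0 h in Arntl-/- macrophages. Mrpl43 was 1.501-fold higher (1.32 to 1.71) over the same interval, but below 1.5-fold under most other scalings.

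In the small subunit, Mrps28 had the widest range of all 77 members (NM_025434, chr3:8802146-8923857 on mm9). Its level was 151, 116, 103 and 74.97 in WT and 102, 118, 65.2 and 53.7 in Arntl-/- macrophages. The lowest library was that of 48 h in each genotype. At 48 h it was 2.01-fold lower (1.53 to 2.66) than at 0 h in WT and 1.91-fold lower (1.39 to 2.65) in Arntl-/- macrophages. Between genotypes it was 1.59-fold lower (1.22 to 2.06) in Arntl-/- at 24 h and 1.395-fold lower (0.956 to 2.05) at 48 h, an interval that includes 1. Under a correction for gene length the difference at 24 h fell short of 1.5-fold, and the 2 libraries of 6 h were close.

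Mrps9, the counterpart of bacterial S9 (NM_023514, chr1:42908078-42962528 on mm9), stood at 141, 142, 128 and 87.8 in WT and 148, 94.4, 132 and 119 in Arntl-/- macrophages. The Arntl-/- library was the lower at 6 h and the WT library the lower at 48 h. It was 1.51-fold lower (1.33 to 1.71) in Arntl-/- at 6 h, the only member that far apart at that time, though not under a correction for expression level. It was 1.61-fold lower (1.34 to 1.94) at 48 than at 0 h in WT. Mrps21, the small subunit member with the highest level (NM_078479, chr3:95666575-95674542 on mm9), stood at 494, 403, 401 and 475 in WT and 357, 559, 492 and 591 in Arntl-/- macrophages. The Arntl-/- 0 h library was the lowest of the 8, and from there the level was 1.57-fold higher (1.38 to 1.78) at 6 h and 1.66-fold higher (1.43 to 1.92) at 48 h. Under corrections for expression level and for gene length neither change reached 1.5-fold, and the change to 48 h did not on the values as deposited.

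The 3 homologs of bacterial S18 differed in level and in course. Mrps18c stood at 403, 303, 381 and 457 in WT and 368, 388, 321 and 307 in Arntl-/- macrophages. Mrps18a, which sits in the large subunit, stood at 232, 192, 195 and 333 in WT and 185, 225, 222 and 268 in Arntl-/- macrophages, and Mrps18b at 171, 160.2, 114 and 113 in WT and 159.5, 183, 102 and 126 in Arntl-/- macrophages. Mrps18c was the highest of the 3 in scaled FPKM in every library. Its exon length is 494 bases, against 856 for Mrps18a and 1044 for Mrps18b. Reads on Mrps18c, Mrps18a and Mrps18b were 418, 417 and 375 in the WT 0 h library and 723, 795 and 809 in the WT 6 h library. Mrps18b was lowest at 48 h in WT and at 24 h in Arntl-/- macrophages, 1.51-fold lower (1.252 to 1.83) at 48 than at 0 h in WT (less than 1.5-fold under a correction for expression level), while Mrps18a was 1.71-fold higher (1.46 to 2.003) at 48 than at 24 h in WT. Mrps30 and Mrps36, the other members that structure assigns elsewhere, stood at 107, 92.2, 126 and 98.05 in WT and 95.2, 112, 94.5 and 114 in Arntl-/- macrophages and at 203, 172, 183 and 157 in WT and 166, 165, 187 and 223 in Arntl-/- macrophages, with no genotype or 0 to 48 h difference of 1.5-fold.

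Mrps11 and Mrpl46 start 42 bases apart and are read in opposite directions. Mrps11 is the counterpart of bacterial S11 in the small subunit (NM_026498, chr7:85928017-85937874 on mm9), and Mrpl46 a mitochondrial protein of the large subunit (NM_023331, chr7:85920227-85927975 on mm9). The stretch between them, with 30 bases of each transcript, is shown because both genes start in it (chr7:78783060-78783160 on the plus strand, GRCm38.p6). It reads in the direction of Mrps11 and holds none of the 5 motifs.

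Mrpl46 and Mrps11: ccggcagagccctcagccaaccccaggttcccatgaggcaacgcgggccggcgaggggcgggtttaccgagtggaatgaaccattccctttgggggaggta

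The level of Mrps11 was 67.7, 99.7, 73.4 and 57.1 in WT and 87.8, 111, 93.1 and 91.9 in Arntl-/- macrophages, and that of Mrpl46 was 112, 114, 137 and 141 in WT and 112, 126, 114 and 96.1 in Arntl-/- macrophages. Mrps11 was higher in Arntl-/- at all 4 times, and Mrpl46 was lower in Arntl-/- at 24 and 48 h. The log2 ratios of Arntl-/- to WT were 0.38, 0.16, 0.34 and 0.69 for Mrps11 and 0.00, 0.14, −0.27 and −0.56 for Mrpl46. At 48 h Mrps11 was 1.61-fold higher (1.202 to 2.17) and Mrpl46 1.47-fold lower (1.17 to 1.86) in Arntl-/- macrophages, so the 2 genes on either side of 1 short stretch of DNA differed in opposite directions between these libraries.

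**Figure D5:**
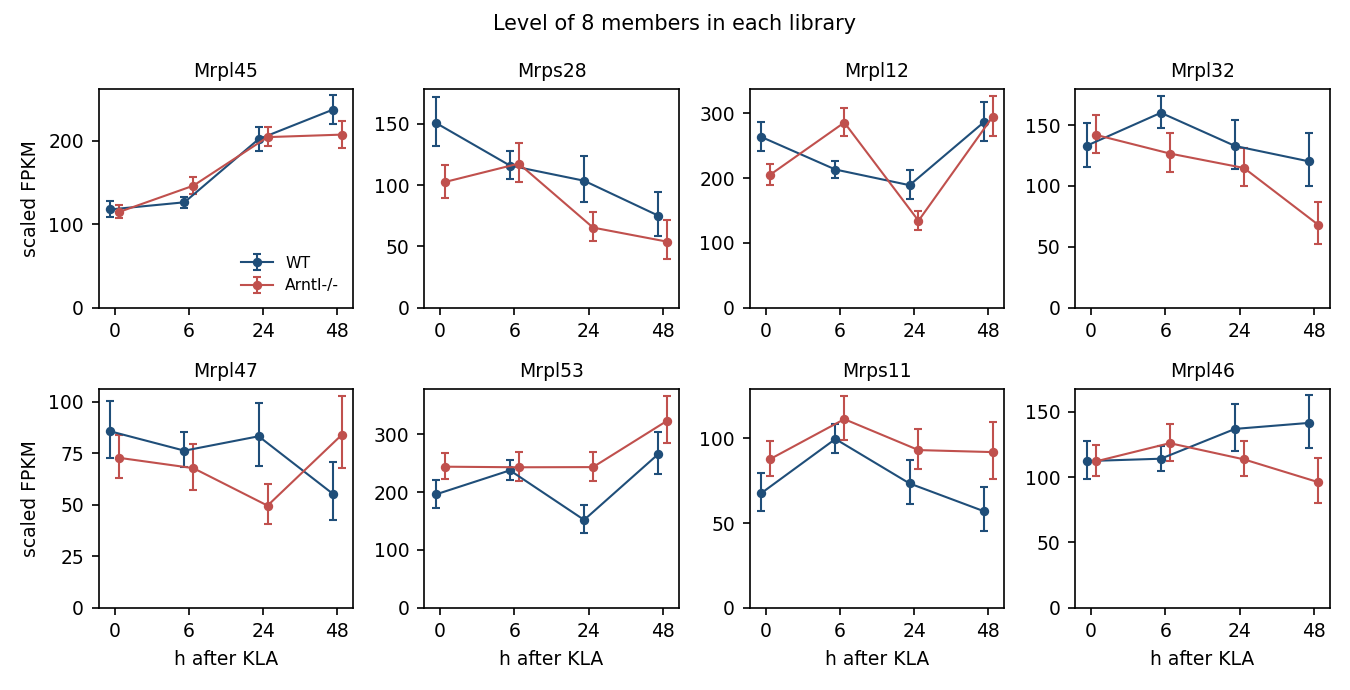
Scaled FPKM of Mrpl45, Mrps28, Mrpl12, Mrpl32, Mrpl47, Mrpl53, Mrps11 and Mrpl46 in WT and Arntl-/- macrophages at 0, 6, 24 and 48 h of KLA, with 95% counting intervals and 1 library per point. Mrpl45 is higher late in both genotypes, Mrps28 lower, and Mrps11 and Mrpl46 part in opposite directions at 48 h.

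Structural proteins of the particle with other names were listed too, and 6 were in the table. Their median log2 ratios between genotypes were 0.05, 0.12, 0.05 and −0.44 at 0, 6, 24 and 48 h. Dap3, a GTP-binding protein of the small subunit, was level at 66.5, 67.8, 58.96 and 66.97 in WT and 67.9, 58.8, 71.8 and 63.6 in Arntl-/- macrophages. Ptcd3, a pentatricopeptide repeat protein of the small subunit, stood at 90.5, 91.3, 49.8 and 76.3 in WT and 109.8, 92.4, 75.04 and 50.5 in Arntl-/- macrophages, lower at 24 h in WT and at 48 h in Arntl-/- macrophages; it was the 1 of 6 that was 1.5-fold apart between genotypes at 24 h and at 48 h, where 6.75% and 11.7% of all genes were. Ict1, a peptidyl-tRNA hydrolase built into the large subunit, stood at 133, 146, 139 and 221 in WT and 143, 170.3, 147 and 149 in Arntl-/- macrophages, with the WT 48 h library above the other 7.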

How the data were processed

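RNA-seq of 8 polyA libraries was analysed; 29 ChIP and input samples were not analysed here. The authors aligned reads with STAR to mm9, counted them on RefSeq exons with HOMER (both strands, at most 3 tags per position, 1 transcript per gene) and deposited FPKM values scaled to 10000000 reads. Whole reads were recovered from the deposited FPKM and the exon length column, and 100% of the low values tried came out whole within 0.02 reads. A further 4 value columns match no sample and were not used, and 1 broken line was left out.

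Libraries were brought to 1 scale with size factors taken as medians of ratios (0.909 to 1.11). Genes with at least 100 scaled reads in 1 or more WT libraries were analysed (10499). Log2 ratios used a pseudocount of 0.1, and at least 1.5-fold was counted. No test was possible within a time. Over the 4 times a fit of genotype and time without interaction (limma 3.58.1 in R 4.3.3, with an intensity trend, 3 residual degrees of freedom, Benjamini-Hochberg adjustment over the 10499 genes) was added after seeing the data; it takes genotype differences that vary with time as error. The 95% intervals are exact, Clopper-Pearson for folds on recovered reads, and cover counting error only. Lowess corrections used a fraction of 0.3. The calculation was tested on simulated data.

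The members and lists were chosen with earlier results of these data known. Named genes are those 1.5-fold apart between genotypes or between 0 and 48 h, the 3 highest and 3 lowest in level in each subunit, the 3 highest and 3 lowest in mean genotype ratio, the 2 largest rises and falls of each time step, lettered paralogs, members placed elsewhere by structure, other structural proteins and Arntl. Others are named where a count of them is given, and Mrpl46 and the E-box members after their values were seen. Alternatives were other scalings, pseudocounts, filters, folds and subunit assignment; a background in the members' range of reads and leaving out the 0 h or 24 h pair were added after seeing the data. Protein sequences were not used here. Python 3.11.15 was used with numpy 2.4.6, pandas 2.3.3, scipy 1.17.1, statsmodels 0.14.6 and matplotlib 3.10.9.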

Additional observations from a re-analysis of the deposited data

Results flagged for a closer look

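Mrpl47 changed in opposite directions from 24 to 48 h in the 2 genotypes. The log2 change was −0.59 in WT and 0.76 in Arntl-/- macrophages, each from 1 library per time. The level was 85.6, 76.2, 83.2 and 55.3 in WT and 72.7, 67.7, 49.5 and 83.8 in Arntl-/- macrophages at 0, 6, 24 and 48 h. The WT change was below 1.5-fold under a correction for expression level or with a pseudocount of 1, and the Arntl-/- change under a correction for gene length. The difference between the genotypes was not tested, since no condition has a second library.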

How the results depend on the processing

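The fit of genotype and time pairs the genotypes by time, with 3 residual degrees of freedom, and called 0 members with limma (7 at an unadjusted p below 0.05, 9.09%, all genes 8.58%). Each genotype and time has 1 library, so there is no replicate number to pair by, and no library could be left out of a condition. Medians counted as moved past 0.1 log2 units, ratios past 0.2, and counts past 1.5 times. Of the summary values under the alternatives 372 kept to these limits and 68 moved; of single genes and background shares 414 kept, 30 no longer reached 1.5-fold and 16 moved. Mrpl20, Mrpl32, Mrpl40, Mrpl50, Mrpl53, Mrps11, Mrps18a and Mrpl13 kept all their calls at the same fold. No value past 1.5-fold changed sign. Values as deposited and upper-quartile scaling move all genes alike: 6 and 1 of the 12 member medians had the other sign, while the members' median less that of all genes moved by at most 0.0002 and kept its sign in all 12. That difference had the other sign in 1 comparison with a correction for level and in 6 with one for gene length. The difference between the subunits' medians had the other sign in 1 and 2 of 12 comparisons under these corrections.

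On the values as deposited, members 1.5-fold apart were 1 between genotypes at 0 h, 2 in WT from 0 to 6 h and 11 in WT from 6 to 24 h (all genes 5.94%, 10.9% and 19.6%). The median genotype ratio at 6 h was −0.0393; the WT medians were 0.0620 (0 to 6 h), −0.28 (6 to 24 h), −0.0438 (24 to 48 h) and −0.23 (0 to 48 h), and the Arntl-/- medians −0.0233 (24 to 48 h) and −0.18 (0 to 48 h). In WT, 36 members were then highest at 6 h, 10 highest at 48 h, 4 lowest at 6 h and 33 lowest at 48 h (46.8%, 13%, 5.19% and 42.9%; all genes 46.5%, 20.1%, 11.8% and 45.7%); in Arntl-/- 27 were highest at 0 h, 11 highest at 48 h, 10 lowest at 0 h and 32 lowest at 48 h (35.1%, 14.3%, 13% and 41.6%; all genes 39.4%, 22.4%, 21.3% and 47.2%). Under upper-quartile scaling 1 member was apart in WT from 0 to 6 h (all genes 8.99%).

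With a lowess correction for level, 1 member was apart between genotypes at 0 h and 0 at 6 h, 1 in Arntl-/- from 0 to 6 h and 7 from 0 to 48 h (all genes 5.08%, 3.16%, 5.93% and 28.9%); the last median was 0.10, and 9 were highest at 6 h in WT (11.7%, all genes 19.5%). With one for gene length, the medians were −0.0470 between genotypes at 6 h, −0.20 in WT from 6 to 24 h, and −0.0268 and −0.14 in Arntl-/- from 24 to 48 h and from 0 to 48 h. Members apart were then 2 between genotypes at 6 h, 2 and 4 in WT from 0 to 6 h and from 6 to 24 h, and 1 in Arntl-/- from 0 to 6 h (all genes 4.03%, 8.31%, 15.3% and 6.41%); 15 were highest at 48 h and 7 lowest at 6 h in WT (19.5% and 9.09%; all genes 33.1% and 24.6%), and 31 highest at 0 h, 11 highest at 48 h and 31 lowest at 48 h in Arntl-/- (40.3%, 14.3% and 40.3%; all genes 29.9%, 34.3% and 34.8%).

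Assigned by structure, the subunit ratio was 2.11, 2.11, 2.13 and 2.31 in WT and 2.16, 2.11, 2.12 and 2.24 in Arntl-/-. At a threshold of 25% in place of 1.5-fold, members apart were 17, 13, 15 and 21 between genotypes at 0, 6, 24 and 48 h, then 11, 20, 26 and 26 in WT and 15, 26, 21 and 30 in Arntl-/- (0 to 6, 6 to 24, 24 to 48 and 0 to 48 h), with 21.2% to 56.1% of all genes; the members' share was below that of all genes in 10 of these 12 comparisons, the others being the genotypes at 0 h (22.1% against 21.2%) and Arntl-/- from 6 to 24 h (33.8% against 33%). At 2-fold they were 0 between genotypes at 6, 24 and 48 h, 0 in WT from 6 to 24 h and from 24 to 48 h and 2 from 0 to 48 h, and 0, 1, 1 and 1 in Arntl-/-, with 0.638% to 13.6% of all genes. At 2-fold, and at 1.5-fold under every scaling, filter and pseudocount run, the members' share was below that of all genes in all 12 comparisons. The cause of these shifts was not tested.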

Other observations

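Genes that serve the mitochondrial ribosome without being part of it were counted at the same 1.5-fold, with levels in scaled FPKM at 0, 6, 24 and 48 h. Of 17 assembly factors, 6 were at least 1.5-fold lower and 0 higher at 48 than at 0 h in Arntl-/- macrophages (Fastkd2, Gtpbp10, Mtg1, Rbfa, Rnmtl1 and Tfb1m), and 5 were lower and 1 higher in WT. Of all genes, 17.3% were lower and 15.2% higher in Arntl-/- macrophages, and 15.2% were lower and 13.5% higher in WT. Rnmtl1, a ribosomal RNA methyltransferase, stood at 31.4, 29.5, 42.2 and 16.3 in WT and 21.98, 23.8, 15.7 and 8.47 in Arntl-/- macrophages. Tfb1m, which dimethylates the small subunit RNA, stood at 42.04, 37.7, 24.6 and 17.7 in WT and 37.6, 27.6, 10.04 and 22.5 in Arntl-/- macrophages. Between genotypes at 24 h, Mrm1 and Ftsj2 were higher in Arntl-/- macrophages by 0.80 and 0.72 log2 units, and Rnmtl1 and Tfb1m differed by −1.42 and −1.28; at 6 h Mtg1 and at 48 h Rnmtl1 were lower, and at 0 h none was 1.5-fold apart. These are 0, 1, 4 and 1 of 17, beside 5.21%, 4.69%, 6.75% and 11.7% of all genes. Of 16 mitochondrial aminoacyl-tRNA synthetases, 5 were higher and 0 lower in Arntl-/- than in WT at 48 h (Cars2, Mars2, Nars2, Pars2 and Wars2), where 5.75% of all genes were higher; at 0, 6 and 24 h there were 1, 2 and 1 apart in either direction, beside 5.21%, 4.69% and 6.75% of all genes. From 0 to 48 h, 5 synthetases were lower and 2 higher in WT (Cars2, Mars2, Nars2, Rars2 and Sars2, at −1.49, −1.28, −1.31, −1.43 and −1.11 log2 units, against Aars2 and Lars2), where 15.2% of all genes were lower and 13.5% higher, and 5 were lower and 3 higher in Arntl-/- macrophages, where 17.3% were lower and 15.2% higher. Of 14 translation factors, Taco1 was higher in Arntl-/- at 24 h, where 3.62% of all genes were, and Mtrf1l at 48 h, where 5.75% were.

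Among regulators linked to mitochondrial biogenesis, Gabpb1, the partner subunit of the ETS factor GABP, stood at 80.6, 67.6, 72.6 and 91.7 in WT and 90.7, 39.8, 37.3 and 58.6 in Arntl-/- macrophages, lower in the Arntl-/- libraries of 6, 24 and 48 h. Its DNA-binding partner Gabpa stood at 102, 95.1, 92.1 and 89.05 in WT and 116, 94.6, 110.03 and 96.1 in Arntl-/- macrophages. Nrf1 stood at 53.3, 62.8, 68.2 and 75.5 in WT and 61.5, 69.2, 73.3 and 65.2 in Arntl-/- macrophages, with no 1.5-fold difference between genotypes. Myc stood at 163, 184, 50.7 and 93.7 in WT and 134, 149.97, 33.1 and 32.2 in Arntl-/- macrophages, with both late libraries below both early ones in each genotype and the Arntl-/- libraries of 24 and 48 h the lowest of the 8. Ppargc1a, the coactivator PGC-1alpha, was at or near 0 in every library.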
